A study of Oryzias latipes with 6 samples.

Results

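Genes of synaptic adhesion molecules and cadherins were followed through 14 clusters of brain nuclei from offspring of fish exposed to benzo[a]pyrene (BaP) and of unexposed fish. The members are the 74 of 24365 genes in the authors' deposited tables whose name starts, in upper or lower case, with nlgn, nrxn, tenm, cntn, lrrtm, ntng, adgrl, opcml, ncam, slitrk, pcdh or with cdh and a digit. The rule reads names and no measured value, although it was set with earlier results of these data known. The nuclei came from whole brains of 6 male Japanese medaka (Oryzias latipes) of the F1 generation, aged 6 months. In the control lineage (3 fish) the parents had been held with solvent for 21 days, and in the BaP lineage (3 fish) for the same time with 1 µg/L BaP, which belongs to the polycyclic aromatic hydrocarbons and arises when organic matter burns. The F1 fish of both lineages grew up in clean water, so that exposure reached them only through their parents. Each brain gave 1 droplet-based 3' single-nucleus library, and the labels place all libraries in 1 sequencing batch.

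Synapses are held together by proteins that reach across the cleft. Neurexins on the presynaptic side bind neuroligins and LRRTM proteins on the postsynaptic side, teneurins bind latrophilins, and SLITRK proteins bind receptor tyrosine phosphatases of the LAR type. Contactins, NCAM proteins and the IgLON protein OPCML are immunoglobulin-domain molecules of axons and glia, and netrin-G proteins are anchored to axons by a lipid. Cadherins and protocadherins bind across membranes in the presence of calcium and help neurons of a kind to sort and connect. These roles are known mostly from mammals.

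What was deposited is 1 comparison of the lineages for each cluster, with a log2 fold change, a log2 mean level, a p-value and an adjusted p-value for each gene. No column belongs to a single fish, so no difference below carries an error between fish, and leaving out a fish is not possible. The p-values appear, from the arithmetic of the tables, to treat nuclei as replicates. Fold changes above 0 mean a higher level in the BaP lineage, as read from the group codes in the table names. They appear to be pulled toward 0 by a small prior count added to each nucleus, so values for genes with few counts are understated. The same arithmetic gave estimates of nuclei, of UMIs (unique molecular identifiers, the tags by which captured transcripts are counted) and of levels in each lineage, given as CPM, that is, UMI counts relative to all those of the same nuclei on a fixed scale. These are estimates, since they were derived from the authors' deposited tables and rest on assumed prior counts (given with the processing), and the 95% Poisson intervals printed with them cover counting error only. The levels are not exact shares. In cluster 3 those of all genes summed to 0.89 (control) and 1.15 (BaP lineage) of the CPM total. By the same arithmetic 2429 control-lineage and 5083 BaP-lineage nuclei were compared (7512 in all), at 684 to 1905 UMIs per nucleus on average.

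Marker lists placed part of the clusters. Cluster 3 held 5 of 5 glutamatergic markers with more than 10 CPM at 2 times or more their mean in other clusters, and cluster 10 held 4 of 5. GABAergic markers met that mark in cluster 1 (8 of 9) and granule neuron markers in cluster 5 (6 of 6). Cluster 2 held 4 of 6 thalamic or tectal markers and 3 of 6 GABAergic markers. The thalamic or tectal list summed to 1740 (control) and 1700 CPM (BaP lineage) in cluster 2. In cluster 10 it summed to 4270 and 4700 CPM. Cluster 11 held 4 of 7 Purkinje markers. Among clusters that are not neuronal by these lists, cluster 6 held 7 of 8 oligodendrocyte markers, cluster 9 held 7 of 9 radial glia markers, and cluster 12 held 5 of 6 markers of oligodendrocyte progenitors. In cluster 8 all 7 endothelial markers and all 4 erythrocyte markers met it. Cluster 7 held 5 of 5 epithelial, 2 of 2 microglia or leukocyte and 4 of 5 fibroblast or meningeal markers, and cluster 13 held 3 of 4 of the last. Clusters 0 and 4 had no list with more than 3 markers at that mark. The second number of each pair leaves out listed genes at or below 10 CPM in that cluster. The full lists hold 7 glutamatergic, 9 GABAergic, 8 granule neuron, 10 radial glia, 5 microglia or leukocyte and 7 fibroblast or meningeal genes. Clusters are called by number below.

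All 74 members were detected in some cluster, 55 of them in every cluster, which gives 934 values of a member in a cluster. The members together made up an estimated 206987 UMIs. The depth was uneven, since 12 members had fewer than 50 UMIs over all clusters together, among them LRRTM1, LRRTM2, SLITRK2, cdh15, cdh17 and adgrl4. Of the 934 values, 435 rested on fewer than 50 UMIs. Pairs of gene rows that differ only by case (cdh4 and CDH4, pcdh8 and PCDH8, pcdh20 and PCDH20) were kept apart, as in the files.

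Members were called higher in the BaP lineage more often than they were called lower. With an adjusted p under 0.05 as the mark of a call, 12 values in the authors' deposited tables were called higher and 2 lower, in 11 members and 7 clusters, while 63 members were called nowhere. Of the 934 detected member values 1.28% were called higher, against 0.186% of all detected genes. Called lower were 0.214% of the member values, the same as the 0.214% of all detected genes. Among genes above the median level of their table, the authors' deposited tables called 1.53% of member values and 0.372% of all genes higher, and 0.255% and 0.415% lower. Neither of these sets of genes was matched to the members in counts, and the part of counts in the gaps was not tested. At an unadjusted p under 0.05 the member values were higher in 13.2% and lower in 1.71%, against 2.97% and 1.92% of all detected genes. Since every cluster drew its nuclei from the same 6 fish, the clusters are not separate tests.

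**Figure D1:**
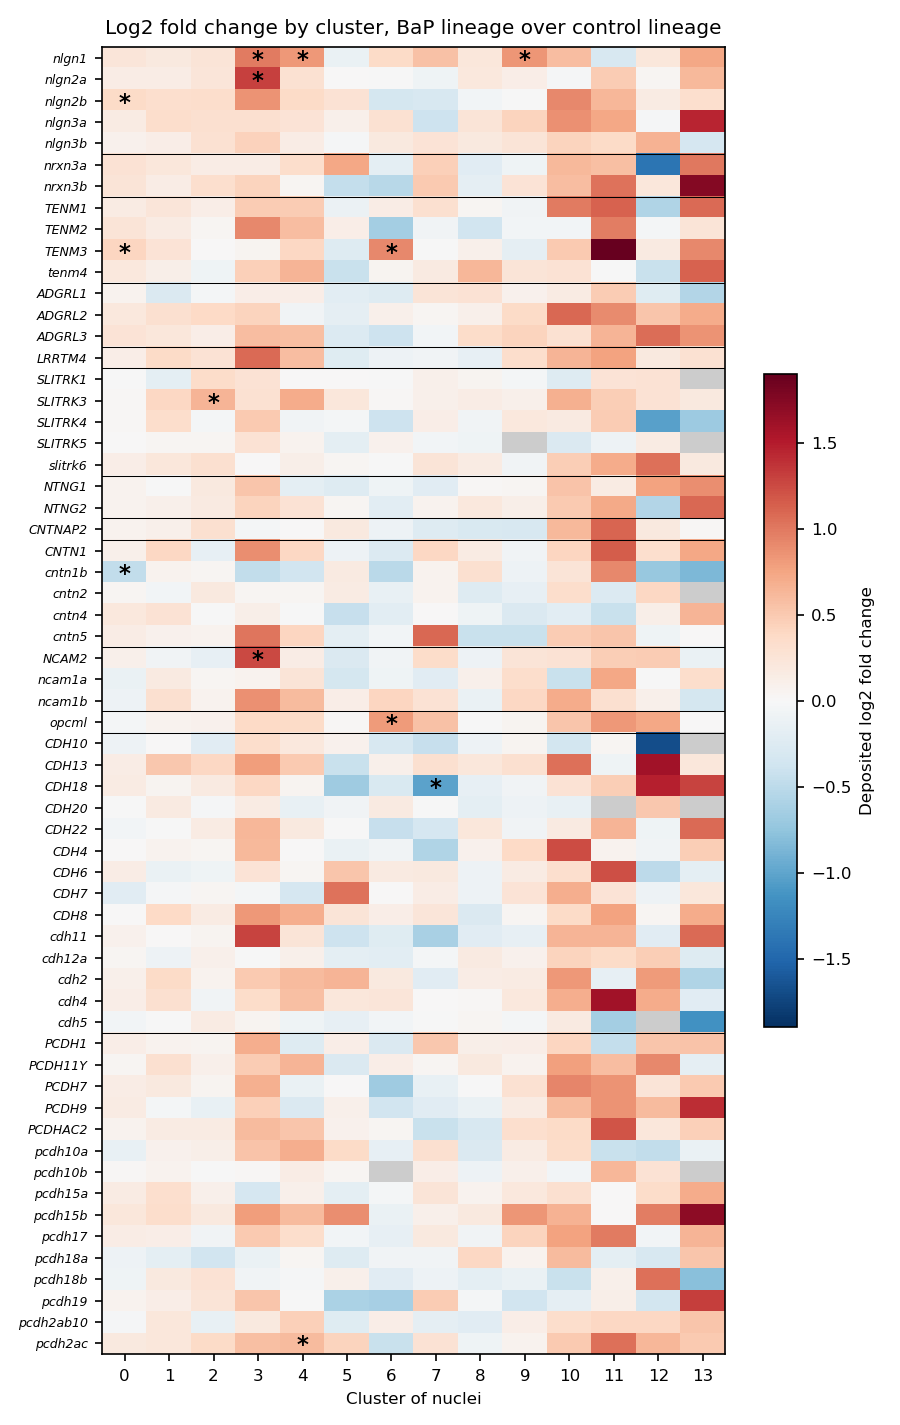
Deposited log2 fold change (color; red is higher in the BaP lineage) of 61 members with at least 50 estimated UMIs in all (rows, grouped by family with lines between families) in each of the 14 clusters (columns). Stars mark 13 values called at an adjusted p under 0.05, and grey marks genes not detected in a cluster. The columns of clusters 3, 10 and 11 are mostly red. In cluster 3, 88.7% of detected members and 82.9% of all detected genes were above 0. In clusters 10 and 11, 83.3% and 81.2% of members were above 0, beside 63.2% and 69.0% of genes. Clusters 0, 1, 2, 4 and 13 also had most members above 0 (73.2% to 77.6%, beside 48.8% to 70.7% of all detected genes). Clusters 9 and 12 had 67.7% and 68.2%, beside 65.2% and 71.8% of genes. Clusters 5, 7 and 8 had 51.5%, 54.4% and 51.5%, beside 63.3%, 50.1% and 58.7%, and cluster 6 had 36.9% beside 59.1%.

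Neuroligins, the postsynaptic partners of neurexins, made 5 of the 12 higher calls. Their 5 genes gave 70 values in the authors' deposited tables, 57 above 0 and 13 below. The median log2 fold change was 0.26, with no lower call. Of all detected genes, between 48.8% (cluster 2) and 82.9% (cluster 3) were above 0 in a cluster. An unadjusted p under 0.05 was reached by 18 of the 70 values, all of them higher. On the higher side 2.97% of all detected genes reached it, and 5.82% of genes above the median level.

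nlgn1, which in mammals acts mainly at excitatory synapses, rose in clusters 3, 4 and 9. In cluster 3 its level was 2050 CPM (1750 to 2380) in control-lineage nuclei and 4120 CPM (3990 to 4260) in BaP-lineage nuclei, from 168 and 3566 UMIs. In cluster 4 it was 1490 CPM (1310 to 1670) against 2710 CPM (2570 to 2860), and in cluster 9, which carries radial glia markers, 1190 CPM (984 to 1420) against 2220 CPM (2050 to 2400). In each of these clusters the intervals of the lineages lay apart, on the same counts that gave the calls. The log2 fold changes in the authors' deposited tables were 0.98, 0.83 and 0.84, with adjusted p-values of 0.00165, 2.5e-05 and 0.0206. With the prior count taken out they were 1.01, 0.87 and 0.90.

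Elsewhere nlgn1 was above 0 in all but 2 clusters. The authors' deposited tables gave 0.23, 0.24, 0.56 and 0.59 in clusters 0, 2, 7 and 10, each at an unadjusted p under 0.05 and not called. The values below 0 were -0.12 in cluster 5 and -0.31 in cluster 11 of the authors' deposited tables. Whether the clusters differ from each other was not tested.

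The paralogs nlgn2a and nlgn2b, whose mammalian counterpart acts at inhibitory synapses, were called in different clusters. nlgn2a rose in cluster 3, from 116 CPM (58.5 to 224) to 422 CPM (380 to 467) (log2 fold change 1.30, adjusted p = 0.0145, from the authors' deposited table). The control value rests on 10 UMIs. nlgn2b rose in cluster 0, from 334 CPM (289 to 384) to 487 CPM (433 to 545) (log2 fold change 0.37, adjusted p = 0.0154, from the authors' deposited table). In cluster 3 the authors' deposited table gave nlgn2b 0.85 (adjusted p = 0.052), which was not called. nlgn2b had an unadjusted p under 0.05 on the higher side in 6 clusters (0, 1, 2, 3, 4 and 10), and nlgn2a in 2. With the deposited values rounded to 2 decimals, the paralogs lay on the same side of 0 in 10 of 14 clusters, as did nlgn3a and nlgn3b. In cluster 5 nlgn2a rounded to 0.00, beside 0.28 for nlgn2b, and was counted on neither side. Neither nlgn3 gene was called. The authors' deposited tables gave nlgn3a 0.34 in cluster 1 and 0.87 in cluster 10, both at an unadjusted p under 0.05.

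Of the neurexins, the presynaptic partners of neuroligins, nrxn3a and nrxn3b were called in no cluster. In cluster 5, where granule neuron markers lie, the authors' deposited table gave nrxn3a 0.74 (adjusted p = 0.114) and nrxn3b -0.45. In cluster 12 the authors' deposited table placed nrxn3a at -1.39 at an unadjusted p under 0.05, on 6 control and 8 BaP UMIs. By the authors' deposited tables the paralogs lay on the same side of 0 in 11 of 14 clusters. The neuroligin medians of the authors' deposited tables were 0.85 in cluster 3, 0.59 in cluster 10 and 0.18 in cluster 6.

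**Figure D2:**
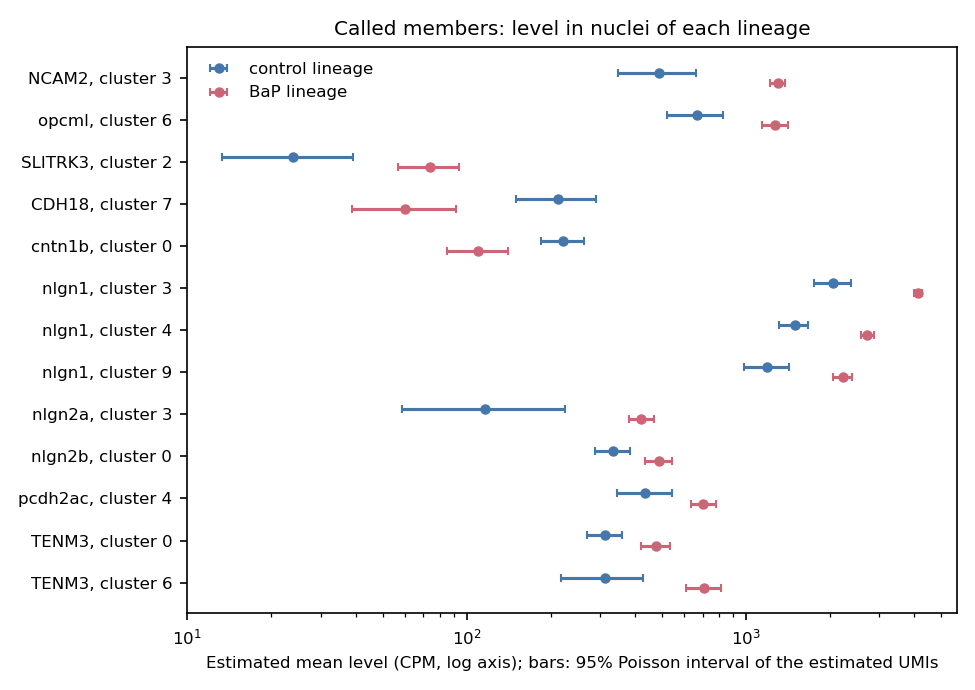
Estimated mean level in CPM (log axis) of 10 called members in their clusters, for control-lineage nuclei (blue) and BaP-lineage nuclei (red), with 95% Poisson intervals of the estimated UMIs. The intervals of the lineages lie apart for all 13 values shown. These values were picked by calls on the same counts, so the gap is not a second test. The widest intervals belong to SLITRK3 in cluster 2, with 15 control UMIs, and nlgn2a in cluster 3, with 10.

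Teneurins, large transmembrane proteins that pair with latrophilins, gave 2 higher calls, both in TENM3. In cluster 6, with oligodendrocyte markers, TENM3 rose from 312 CPM (217 to 429) to 707 CPM (609 to 816). The authors' deposited table gave 0.92 (adjusted p = 0.0137), on 36 and 186 UMIs. In cluster 0 it rose from 312 CPM (269 to 361) to 475 CPM (422 to 533) (log2 fold change 0.41, adjusted p = 0.0186, from the authors' deposited table). With the prior count taken out these values were 1.18 and 0.61. The largest log2 fold change of TENM3, 1.92 in cluster 11 of the authors' deposited table, was not called and rests on 6 control UMIs.

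The other teneurins were called in no cluster. TENM1 had an unadjusted p under 0.05 on the higher side in 5 clusters, and the authors' deposited tables gave it 0.48 in both clusters 3 and 4 and 0.99 in cluster 10. The authors' deposited tables placed TENM2 at 0.91 in cluster 3 and at -0.65 in cluster 6, both at an unadjusted p under 0.05. In cluster 6 TENM2 and TENM3 lay on opposite sides of 0. Latrophilins, the teneurin receptors, gave no call. ADGRL3 came closest, and the authors' deposited table gave it 0.57 in cluster 4 (adjusted p = 0.191). ADGRL2 reached 1.09 in cluster 10 of the authors' deposited table, on 4 control UMIs.

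Postsynaptic leucine-rich repeat proteins gave 1 call. SLITRK3, which in mice organizes inhibitory synapses, rose in cluster 2 from 23.9 CPM (13.3 to 39.3) to 73.7 CPM (56.6 to 93.9). The authors' deposited table gave a log2 fold change of 0.64 (adjusted p = 0.00888), which became 1.62 without the prior count, the largest such step among the called members. In the authors' deposited tables SLITRK3 was above 0 in all 14 clusters, but at an unadjusted p under 0.05 in only 3. Its values in clusters 0 and 6 were 0.02 each. Between 48.8% (cluster 2) and 82.9% (cluster 3) of all detected genes were above 0 in a cluster. LRRTM4, a neurexin ligand of excitatory synapses, was called nowhere. Its values in the authors' deposited tables were 1.07 in cluster 3 (adjusted p = 0.0824) and 0.59 in cluster 4 (adjusted p = 0.119). LRRTM1 and LRRTM2 had 21 and 30 UMIs in all.

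Among the immunoglobulin-domain genes, NCAM2 and opcml rose and cntn1b fell. NCAM2, a homophilic adhesion molecule of axons, rose in cluster 3 from 489 CPM (348 to 664) to 1300 CPM (1220 to 1380), on 40 and 1123 UMIs. The authors' deposited table gave a log2 fold change of 1.26 (adjusted p = 0.00339). In clusters 1 and 2, with 706 and 660 control UMIs, the authors' deposited tables gave NCAM2 -0.06 and -0.16, and neither was called. ncam1a and ncam1b were called nowhere, and ncam1b had an unadjusted p under 0.05 on the higher side in 4 clusters (1, 3, 4 and 10).

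opcml, an IgLON protein held to the membrane by a lipid anchor, rose in cluster 6 from 666 CPM (523 to 828) to 1270 CPM (1140 to 1410). The authors' deposited table gave 0.81 (adjusted p = 0.00326), on 77 and 334 UMIs. In cluster 9, the cluster next in its level, opcml stood at 771 and 804 CPM, a log2 fold change of 0.05 in the authors' deposited table. cntn1b, 1 of the medaka contactin-1 genes, fell in cluster 0 from 222 CPM (185 to 263) to 110 CPM (85.3 to 140) (log2 fold change -0.47, adjusted p = 0.0161, from the authors' deposited table). In cluster 6 the authors' deposited table gave -0.51 at an unadjusted p under 0.05. For the gene row CNTN1 the authors' deposited tables gave 0.10 in cluster 0 and 0.40 in cluster 1 (adjusted p = 0.0979). CNTN1 and cntn1b lay on the same side of 0 in 7 of 14 clusters.

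Further contactin genes were not called. The authors' deposited tables gave cntn5 1.01 in cluster 3 (adjusted p = 0.0824) and 1.09 in cluster 7 (adjusted p = 0.0792). CNTNAP2, the partner of contactins at the axon beside the node of Ranvier, stood at 1.10 in cluster 11 of the authors' deposited table on 30 control UMIs, with an unadjusted p of 0.009 and an adjusted p of 1. The netrin-G genes NTNG1 and NTNG2 had no value with an unadjusted p under 0.05 in any cluster.

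Cadherins and protocadherins, the largest families by number of genes, gave 1 call in each direction. At an unadjusted p under 0.05 the 16 cadherin genes had 22 of 197 values higher (11.2%) and 6 lower (3.05%), and the 21 protocadherin genes had 24 of 243 higher (9.88%) and 4 lower (1.65%). Of all detected genes 2.97% were higher and 1.92% lower by that mark, and of genes above the median level 5.82% and 3.24%. CDH18, a classical cadherin of type II, fell in cluster 7 from 213 CPM (150 to 290) to 60.3 CPM (38.8 to 91.8), on 38 and 23 UMIs. The authors' deposited table gave -1.02 (adjusted p = 0.0396), and the value was -1.82 without the prior count. The authors' deposited tables placed CDH18 at -0.68 in cluster 5, on 11 control UMIs, and at 1.47 in cluster 12, on 3 control UMIs. Both had an unadjusted p under 0.05, and neither was called. In cluster 7 the authors' deposited table also gave cdh11 -0.61, CDH4 -0.57 and CDH10 -0.44 at such a p, not called. Of 68 members there, 5.88% had such a p on each side, beside 2.65% of all detected genes lower and 0.909% higher. In cluster 6 the authors' deposited table gave PCDH7 -0.68, pcdh19 -0.63 and SLITRK4 -0.40 at such a p, not called. Of 65 members there 7.69% were lower and 3.08% higher, beside 1.74% and 3.39% of genes. pcdh2ac, of the clustered protocadherins, rose in cluster 4 from 433 CPM (345 to 541) to 703 CPM (633 to 780) (log2 fold change 0.60, adjusted p = 0.0451, from the authors' deposited table). With p-values adjusted over all 14 tables together its adjusted p was 0.0709, the sole call of the 14 that was lost. Clustered protocadherin transcripts of a cluster share their last exons, so 3' reads may be divided among such genes in a way the files do not show.

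Repetition at an unadjusted p was not confined to called genes. Members with such a p on the higher side in many clusters were nlgn1 and pcdh2ac (7 clusters each) and CDH13, nlgn2b and pcdh15b (6 each). None of these 5 genes had such a p on the lower side. Among genes above the median level such a p on the higher side was common, at 5.82% over all clusters and 13.5% in cluster 3, and the clusters are not separate tests. The share of all genes with such a p in 6 or more clusters was not counted. For CDH13, a cadherin without a transmembrane domain, the authors' deposited tables gave 0.51, 0.39, 0.80 and 0.50 in clusters 1, 2, 3 and 4, none of them called. pcdh15b, whose mammalian counterpart forms part of the tip link of hair cells, was at 0.80 in cluster 3, 0.60 in cluster 4 and 0.84 in cluster 9 of the authors' deposited tables, on 7, 4 and 3 control UMIs.

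Cluster by cluster, the detected members lay above the detected genes as a whole in 11 of 14 clusters, by the median of the authors' deposited tables. In cluster 3 the medians were 0.40 for 71 members and 0.08 for all detected genes. In cluster 10 they were 0.41 for 66 members and 0.09, in cluster 11 they were 0.48 for 64 members and 0.14, and in cluster 4 they were 0.14 for 67 members and 0.03, in the authors' deposited tables. In clusters 0, 1 and 2, which hold the most nuclei, the authors' deposited tables had member medians of 0.06, 0.12 and 0.08 against 0.00, 0.01 and -0.01. The members lay below the detected genes in cluster 5 (0.01 against 0.03), cluster 6 (-0.06 against 0.04) and cluster 8 (0.01 against 0.05) of the authors' deposited tables.

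**Figure D3:**
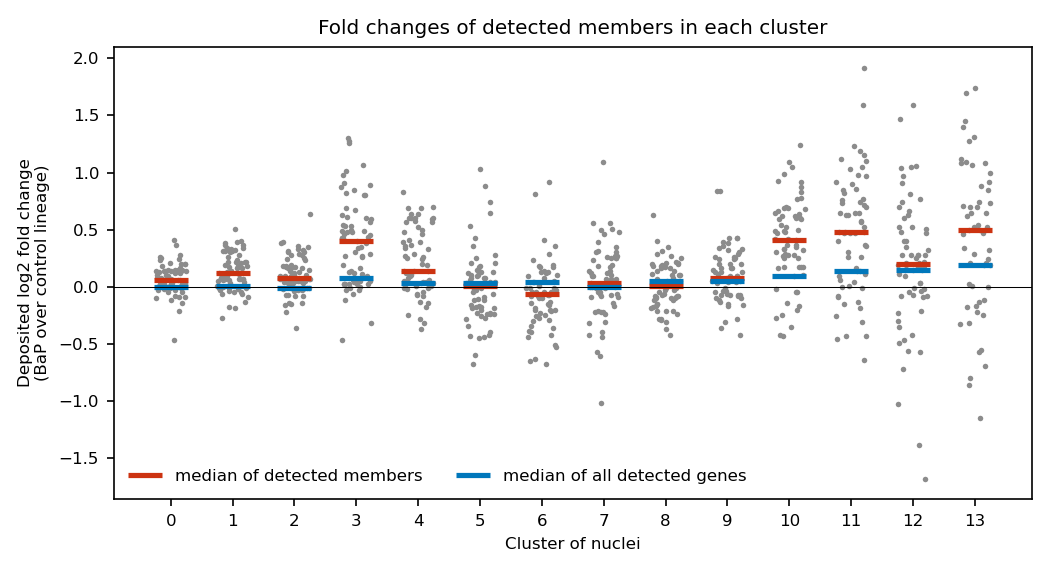
Deposited log2 fold change of detected members (920 grey points, 1 for a member in a cluster) by cluster, with the median of detected members (red) and the median of all detected genes (blue). The red bars stand well above the blue ones in clusters 3, 10, 11 and 13, and below them in clusters 5, 6 and 8.

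Genes above the median level had higher medians themselves in most of these clusters. In cluster 3 the median of such genes was 0.25 and that of such members 0.46, and in cluster 10 the medians were 0.14 and 0.49, in the authors' deposited tables. By this reference the members lay higher in 9 of 14 clusters. The order turned in cluster 12, with 0.30 for genes and 0.19 for members, and in cluster 9, with 0.09 and 0.08, in the authors' deposited tables. All calls kept their direction when the median of such genes was subtracted. nlgn1 in cluster 3 was then 0.72 and NCAM2 1.00. The estimated levels of all genes in cluster 3 summed to 0.89 of the CPM total in control-lineage and 1.15 in BaP-lineage nuclei. With the prior count out and both lineages scaled to equal totals, a comparison chosen after the data were seen, nlgn1, nlgn2a and NCAM2 in cluster 3 stood at 0.63, 1.49 and 1.03.

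The share of members with a small unadjusted p differed from that of all genes in several clusters. Among genes above the median level, 38.2% of members in cluster 4 had an unadjusted p under 0.05 on the higher side, against 8.77% of all such genes. In cluster 3 the shares were 32.2% and 13.5%, and in cluster 1, where no member was called, they were 31.1% and 9.07%. Clusters 0, 2, 10 and 11 gave 18.3%, 21.7%, 21.8% and 21.4% of members, against 7.28%, 5.2%, 4.43% and 5.79% of genes. In cluster 6 the members were below the genes on the higher side (3.7% against 6.77%) and above them on the lower side (9.26% against 3.04%), where clusters 7, 12 and 5 gave 7.41%, 3.64% and 3.57% of members against 5.02%, 0.789% and 3.44% of genes. Cluster 8 gave 1.72% against 5.22% on the higher side, and cluster 9 gave 3.92% against 5.04%. Clusters 5, 7, 12 and 13 gave 7.14%, 7.41%, 5.45% and 0% of members, against 2.83%, 1.82%, 1.07% and 0.79% of genes. On the lower side clusters 0, 1 and 2 gave 1.67%, 1.64% and 1.67% of members against 4.57%, 5.33% and 8.02% of genes. In clusters 3, 4, 8, 9, 10, 11 and 13 no such member was lower, beside 0.545%, 2.77%, 2.19%, 2.16%, 1.48%, 1.16% and 1.03% of genes. Over all 14 clusters the higher shares were 15.7% of members and 5.82% of genes, and the lower shares 2.04% and 3.24%. Whether clusters differ in these shares was not tested. The genes above the median level were not matched to the members in counts. That set reaches down to values on few UMIs, where a small p is harder to reach, such as ADGRL1 in cluster 13 on 8 UMIs. Over all clusters together the members had a median of 1841 UMIs. The part of counts in these gaps was not tested.

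**Figure D4:**
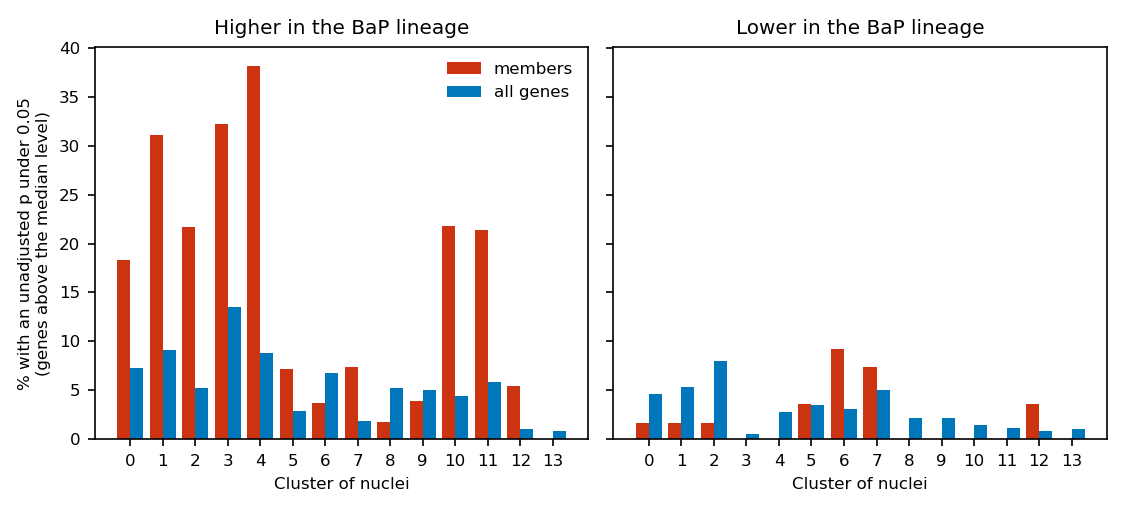
Share of members (red) and of all genes (blue) with an unadjusted p under 0.05, among genes above the median level of each cluster, higher in the BaP lineage on the left and lower on the right. On the left the red bars exceed the blue ones in clusters 0 to 5, 7, 10, 11 and 12, and on the right in clusters 5, 6, 7 and 12.

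Cluster 0 called 0.204% of detected genes higher and 0.305% lower, beside 2 higher members (TENM3, nlgn2b) and 1 lower (cntn1b) of 71. Cluster 2 called 0.176% of genes higher, beside 2 members, SLITRK3 among them, of 71. Cluster 3 called 0.442% higher, beside 3 members (nlgn1, nlgn2a, NCAM2) of 71, and cluster 4 called 0.46% higher, beside 2 (nlgn1, pcdh2ac) of 67. Cluster 6 called 0.454% higher, beside 2 members (TENM3, opcml) of 65, and cluster 9 called 0.105% higher, beside nlgn1 of 65. Cluster 7 called 0.195% of genes lower, beside CDH18 of 68. In each of these clusters the member share was 1.41% or more and above that of the genes, on counts of 1 to 3 members. In the other clusters and directions no member was called. There the share of genes called higher was 0.364%, 0.0255%, 0.039%, 0.0922%, 0.0308% and 0.00854% in clusters 1, 5, 7, 8, 10 and 11. The share called lower was 0.594% in cluster 1, 0.771% in cluster 2, 0.0605% in cluster 3, 0.14% in both clusters 4 and 5, and 0.103%, 0.111%, 0.0724% and 0.115% in clusters 6, 8, 9 and 10.

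Other measures moved with these calls. In cluster 3 only 71 of 709 nuclei belonged to the control lineage. Its glutamatergic markers (7 of 7 detected, none called) summed to 511 CPM in the control lineage and 986 CPM in the BaP lineage, and its radial glia markers (9 of 10 detected, slc1a2b called higher) to 461 and 1380 CPM. In cluster 6 the oligodendrocyte markers (8 of 8 detected) summed to 8130 and 13200 CPM, with mpz, cldn19 and mag, and the radial glia marker glula, called higher beside opcml and TENM3. In cluster 9 the radial glia markers stood at 23600 and 25900 CPM with no call, while the Purkinje list (6 of 7 detected) stood at 744 and 1190 CPM with 1 marker called higher beside nlgn1. In cluster 7 the erythrocyte markers (4 of 4 detected) summed to 5620 and 1600 CPM with 2 called lower, and the thalamic or tectal list to 727 and 500 CPM with lef1 called lower beside CDH18, while the fibroblast marker col1a2 was called higher. In cluster 4 the glutamatergic markers summed to 252 and 512 CPM, with SLC17A6 and 1 Purkinje marker called higher. In cluster 0 the erythrocyte markers summed to 1410 and 640 CPM with 2 called lower, and in cluster 2 the oligodendrocyte markers to 686 and 372 CPM with mbpb called lower. The radial glia marker glula was called lower in both. The share of UMIs from mitochondrially encoded genes was lower in the BaP lineage in all 14 clusters, for example 28.2% against 13.7% in cluster 3 and 21.5% against 13.1% in cluster 4. The part of these changes in the member values was not tested.

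Members also differed in where they were expressed. These levels are means over the nuclei of both lineages, and the lineages hold unequal shares of each cluster (71 control-lineage nuclei of 709 in cluster 3 and 910 of 1754 in cluster 0). In control-lineage nuclei alone, 30 of 62 members with at least 50 UMIs kept their highest cluster. Over both lineages, of these 62 members, 22 had their highest level in cluster 12, a cluster of 88 nuclei with markers of oligodendrocyte progenitors. For 21 of the 62 the interval of the highest cluster lay above that of the next, and the others could not be ordered at the top by counting error alone. nlgn1 is an example of the latter, at 4320 CPM in cluster 12 and 3940 CPM in cluster 3, with 519 CPM in cluster 5 the lowest. In control-lineage nuclei nlgn1 was also highest in cluster 12 (3800 CPM), with cluster 1 next (2530 CPM) and 2050 CPM in cluster 3.

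The nrxn3 paralogs differed in cluster 5, which holds the granule neuron markers. There nrxn3a had its highest level, at 1820 CPM (1720 to 1930), ahead of 862 CPM in cluster 1, and in control-lineage nuclei alone the order was the same (1120 and 759 CPM). nrxn3b had its highest level over both lineages in cluster 11 (1910 CPM) and its lowest in cluster 5 (204 CPM). In control-lineage nuclei nrxn3b stood at 1040 CPM (758 to 1380) in cluster 11 and at 1450 CPM (1350 to 1550) in cluster 1. Its highest cluster by estimate thus changed, but these intervals overlapped. The netrin-G gene NTNG2 led in cluster 5, at 472 CPM (420 to 530) over both lineages and 457 CPM in control-lineage nuclei.

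Other members led in 1 cluster without being confined to it. slitrk6 in cluster 10 (340 CPM) had 9.74 times its mean over other clusters, the highest such ratio among values of at least 50 UMIs, and CDH7 in cluster 12 (863 CPM) had 7.18 times. ncam1a led in cluster 9, at 994 CPM (898 to 1100) and 4.66 times its mean elsewhere, with 636 CPM in cluster 11. cntn4 led in cluster 1 (395 CPM, 3.61 times), with 274 CPM in cluster 2. SLITRK3 was highest in cluster 4 (91.1 CPM, 3.04 times), but its interval there (70.6 to 117) overlapped that of cluster 10 (33.0 to 101). Each of these 5 genes had the same highest cluster in control-lineage nuclei alone, SLITRK3 on 6 control UMIs.

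For other members the highest cluster differed between both lineages together and control-lineage nuclei alone. Over both lineages cntn5 was highest in cluster 3 (595 CPM, 3.76 times its mean elsewhere), while in control-lineage nuclei it stood at 263 CPM there and 361 CPM in cluster 1. CNTNAP2 was highest in cluster 11 (1320 CPM, 3.41 times), while in control-lineage nuclei it stood at 676 CPM there and 834 CPM in cluster 1. opcml was highest in cluster 6 (1080 CPM, 3.21 times), while in control-lineage nuclei it stood at 666 CPM there and 771 CPM in cluster 9. pcdh18a was highest in cluster 8 (181 CPM, 3.51 times), the cluster with endothelial markers, while in control-lineage nuclei it stood at 137 CPM there and 144 CPM in cluster 2. For each of these 4 genes the control-lineage intervals of the clusters named overlapped. cdh5, the cadherin of endothelial junctions, was highest in cluster 8 over both lineages (58.8 CPM), and in control-lineage nuclei cluster 13 stood above it on 2 UMIs. Among members with at least 50 UMIs in cluster 2, pcdh18b had the highest ratio there (81.8 CPM, 2.53 times). Its own highest level was in cluster 12 (117 CPM). In clusters 0, 7 and 13 no member with at least 50 UMIs there stood far above its mean elsewhere. The highest such ratios were 1.8 for CDH10, 1.23 for ADGRL2 and 0.737 for nrxn3b. In cluster 13 only 4 of 56 detected members had that many UMIs, so the others were not ranked there.

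**Figure D5:**
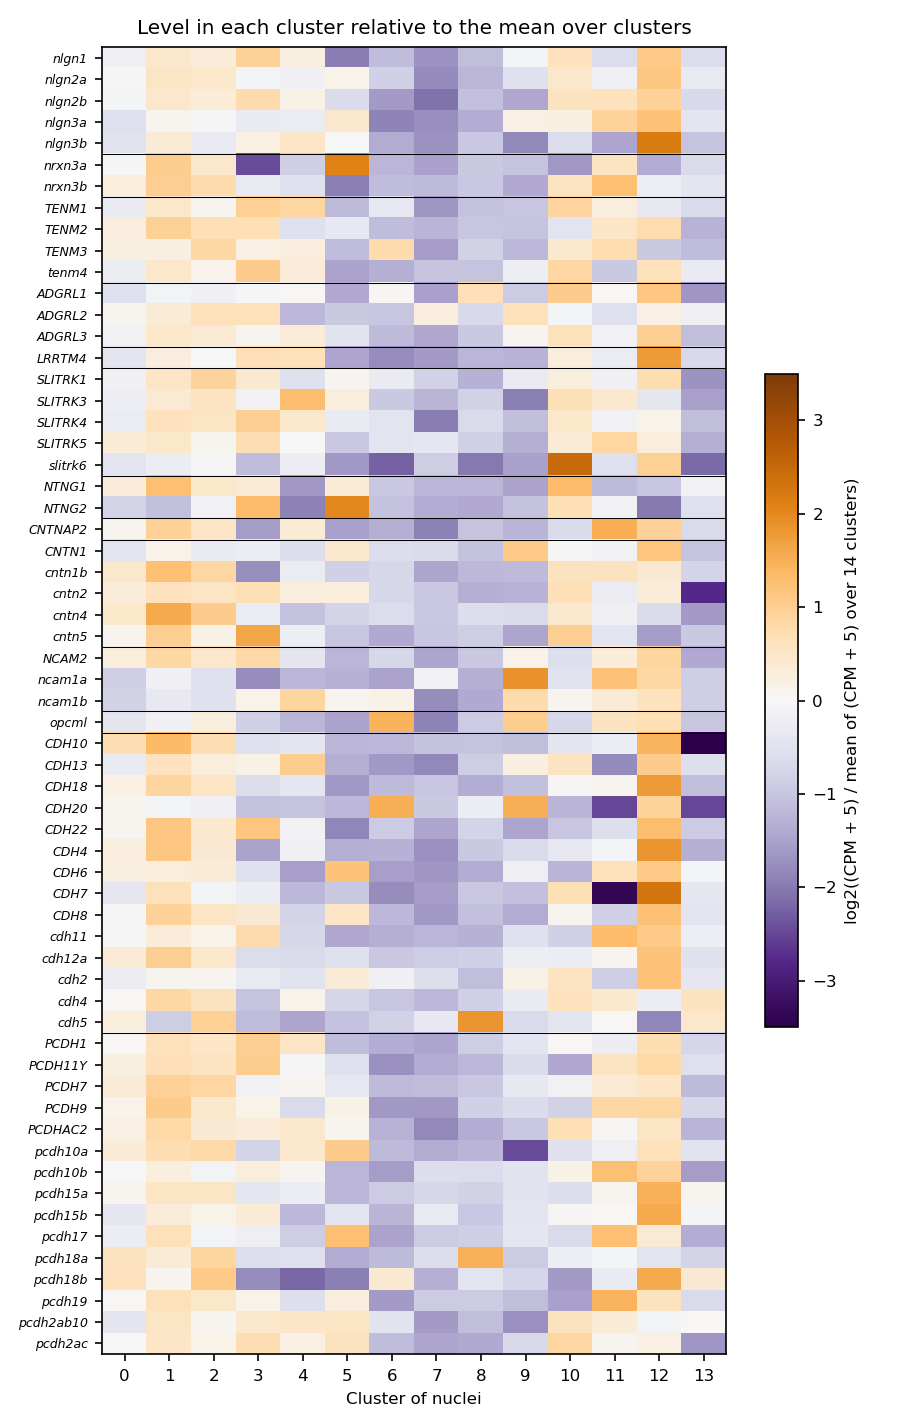
Level of 61 members with at least 50 estimated UMIs (rows) in each cluster (columns), over both lineages, as log2 of CPM plus 5 over the mean of that quantity across clusters (orange above the mean, purple below). Clusters 6, 7, 8, 9 and 13 are among those that are mostly purple, and cluster 12 is mostly orange. Exceptions include opcml in cluster 6, cdh5 and pcdh18a in cluster 8, and ncam1a in cluster 9.

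Summed over all members, the level was highest in cluster 12 (34737 CPM) and in cluster 1 (29825 CPM), and lowest in cluster 7 (7231 CPM), cluster 8 (9626 CPM) and cluster 6 (10103 CPM). The sum was higher in the BaP lineage in 13 clusters, for example 13843 CPM against 24482 CPM in cluster 3 and 15562 CPM against 20859 CPM in cluster 4. In cluster 6 it was 10259 CPM in the control lineage and 10035 CPM in the BaP lineage. These sums were not scaled to equal totals. The levels of all genes summed to 0.89 (control) and 1.15 (BaP lineage) of the CPM total in cluster 3, and to 1.17 and 1.10 in cluster 6. The size of the difference in cluster 3 and the order in cluster 6 therefore depend on the scale. Free RNA from other nuclei can place such transcripts in any cluster, and its part in these levels was not tested.

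Among genes that work with the members, every call was on the higher side. Of 27 scaffold genes at the synapse, 2 were called higher (3 calls), none lower, and 25 were called in no cluster, by the authors' deposited tables. CASK, a scaffold that binds neurexins, rose by 0.65 in cluster 4 of the authors' deposited table. Of 41 other adhesion and organizer genes, 5 were called higher (7 calls) and none lower. They were the LAR-type phosphatases PTPRD (1.05 in cluster 3, 0.62 in cluster 4), ptprfa (1.00 in cluster 5) and PTPRS (0.43 in cluster 1), with il1rapl2 (1.19 in cluster 3, 0.82 in cluster 4), a postsynaptic partner of such phosphatases, and ADGRB3 (0.85 in cluster 3), in the authors' deposited tables. Of 8 genes of the L1 family and other immunoglobulin adhesion molecules, nfasca rose in cluster 0 (0.42), and of 10 catenins and cadherin partners, CELSR3 rose in cluster 4 (0.89) and ctnna2 in cluster 9 (1.05), in the authors' deposited tables. As shares of detected values the higher calls of these lists were 0.8%, 1.32%, 0.909% and 1.43%, beside 0.186% of all detected genes and 1.28% of member values. Of genes above the median level 0.372% were called higher. Called lower were 0.214% of all detected genes and 0.415% of those above the median level, so few lower calls could be looked for in lists of this size.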

How the data were processed

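Single-nucleus RNA-seq libraries were made from frozen whole brains of 6 fish, per the labels' protocols. Cell Ranger appears, with no version, in the submitters' processing notes. Per the series design text, reads were aligned to a medaka assembly and lineages were compared within clusters. Not given in the sources used here are the tool of the comparison, how nuclei were clustered and filtered, and how free RNA and doublets were handled. The authors deposited 14 tables of 24365 genes. Per the file headers they hold log2 fold changes, log2 mean CPM, p-values and adjusted p-values. A Benjamini-Hochberg adjustment over the whole table gave back the deposited adjusted p-values to within 1.7e-13.

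A member was called where the deposited adjusted p was under 0.05, and no test was added. Levels, UMIs and nuclei were worked out by taking out assumed prior counts of 2 (mean level) and 0.125 (fold change) per nucleus. Genes with 1 count gave the nuclei of each lineage. Estimated levels of all genes summed to 1.06 to 1.17 times the CPM total per cluster, so they run somewhat high. Between lineages the sums differed most in cluster 3 (0.89 in control and 1.15 in BaP-lineage nuclei). Fold changes without prior counts needed at least 3 UMIs in each lineage. On simulated tables modelled on clusters 3, 4, 6 and 9 the nuclei came out within 3. Among changed genes with at least 3 UMIs in each lineage, the direction was that of the simulated counts for 134 of 134, 177 of 177, 144 of 144 and 151 of 152. The reference was the counts drawn and not the fold changes set. Taking out the prior count cannot change a sign, so this says little about direction. The simulation shares the assumptions.

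Named genes are all called members, the member of smallest p in each family, those with repeated unadjusted p-values under 0.05 (6, through a tie) and the leading member of each cluster by level. cdh5 and a few uncalled members were named after their values were seen. Some genes that the rule or the lists take are not reported by name here or shown gene by gene in the plots, while counts, sums and medians over genes include them. Members and lists were chosen with earlier results of these data known. Symbols of the other lists were matched in any case, also with a final a or b gained or lost. No sequences or coordinates are given, since those at hand are of another build. Calculations used Python 3.11, numpy 2.4.6, pandas 2.3.3 and scipy 1.17.1.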

Additional observations from a re-analysis of the deposited data

How the results depend on the processing

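Counts of calls moved with the threshold, a minimum fold change and the genes adjusted over. At an adjusted p under 0.1, 22 member values were higher, in 17 genes called in either direction, and at 0.01 these were 5 and 4, with 0 lower. Where calls also had to reach 1 in log2 fold change there were 2 higher and 1 lower, in 3 genes, and where they had to reach 0.5 there was 1 lower. With p-values adjusted over genes above the median level alone, 30 values were higher, in 21 genes. The genes of the other lists gave 13 higher and 0 lower calls, which became 22 and 1 at 0.1, 7 higher at 0.01, 3 higher where a log2 fold change of 1 was needed, and 28 higher and 2 lower over genes above the median level. Adjusted over detected genes, 1 was lower. Without cluster 3, 9 of the 12 higher calls were left. The share of all genes called at these settings was not counted. These counts therefore show how the calls move with the setting, and not how members stand beside other genes. Subtraction of the median and scaling to equal totals were chosen after the data were seen. The 14 called values kept their side of 0 under both of these. The other alternatives could not show this, since a new adjustment leaves fold changes as they are. Taking out the prior count cannot change their sign either. Of the changes in which genes p-values were adjusted over, adjustment over all 14 tables together cost 1 call (pcdh2ac in cluster 4), and the others cost none. In control-lineage nuclei alone 30 of 62 members kept their highest cluster. No paired analysis was possible because the tables hold no values per fish, and leaving out single fish was not run for the same reason. Depth limits what can be read in clusters 11, 12 and 13, with 32, 15 and 14 control-lineage nuclei.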
